A study of Mus musculus with 8 samples.

Results

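The haemoglobin and erythroid genes described here are 9 genes of red blood cells, Hba-a1, Hbb-b1, Hba-x, Hbb-y, Hbb-bh1, Ahsp, Alas2, Slc4a1 and Hemgn, measured in whole small intestine of E18.5 mouse embryos, shortly before birth. They were taken as every non-control probe that carries one of these names in the array annotation, which gave 10 probes (Hbb-y has 2) out of 55681 probes under 36161 gene names. Control arrays 1, 3 and 4 came from embryos with 1 floxed Rfx6 allele (Rfx6 fl/+), control array 2 from an embryo with 2 (Rfx6 fl/fl), and the 4 mutant arrays from Rfx6 fl/fl embryos that also carried Ngn3-cre. Rfx6 is a transcription factor of endocrine cells, and Ngn3, whose regulatory sequence drives the Cre, is a gene of endocrine progenitors. Cre is named in the mutants only, so the effect of Cre and that of the deletion cannot be told apart. The labels do not say whether the replicates came from separate litters, and p-values measure the spread between these arrays.

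Haemoglobin is built from alpha-like and beta-like globin chains, each holding a heme group. In the mouse embryo the first red cells arise in the yolk sac and use embryonic chains (Hba-x, Hbb-y and Hbb-bh1), and the red cells that later come from the fetal liver use the adult-type chains (Hba-a1 and Hba-a2, and the adult beta genes). Blood in the vessels of an organ brings red cells into a whole-tissue extract, and maturing red cells keep globin RNA for some time after many other transcripts have gone. In such a bulk sample, fewer red cells and less RNA per red cell cannot be told apart.

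Levels are log2 processed intensities minus the log2 of the array's 75th percentile, so 0 is that percentile and 1 unit is a doubling. Different probes bind with different strength, so each probe is compared only with itself across arrays. Summed levels of lists add the intensities of their tested genes, follow the brightest probes and are compared only across arrays. A probe was tested where the scanner software marked it well above background on at least 4 of the 8 arrays. The 75th percentile lay between 788 and 1027 intensity units, 59.7% to 69.9% of probes were well above background, and no spot was saturated. Mutant array 1 correlated less with the others (mean r = 0.975 across probes) than the remaining 7 did (0.989 to 0.990). All 7 epithelial markers of the small intestine (Vil1, Cdh17, Fabp2, Lct, Cdx1, Cdx2 and Epcam) were well above background on all 8 arrays. The Rfx6 probe gave a log2 difference of -0.50 with a standard error of 0.52 (limma, adjusted p = 0.828), and 0.0986 without mutant array 1 (-5.52), so this probe does not check the labels.

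None of the 9 tested probes passed the test between mutants and controls (limma, Benjamini-Hochberg over all 35471 tested probes), with adjusted p from 0.828 to 0.999. Among all tested probes, 0.0423% were called (15 of 35471), 0.00282% as higher and 0.0395% as lower. No tested member had an unadjusted p under 0.05 and none had groups that did not overlap, against 4.38% of all tested probes (2.81% higher and 1.56% lower). Of the 9, 5 were higher and 4 lower in mutants, and their median log2 difference was 0.0025, beside 0.0240 over all tested probes. Without mutant array 1 the 9 differences ran from -0.1923 (Alas2) to 0.5068 (the Hbb-y probe farther from the 3' end), and none was called. The 10th probe, for Hba-x, was not well above background on any array and was not tested. The levels of 5 of the genes varied together from array to array, over 2.14-fold to 3.08-fold ranges, in an order that did not separate mutants from controls. Control array 2, the only Rfx6 fl/fl control, was the lowest control for each of the 5. With 1 such array, that genotype and the array cannot be told apart.

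**Figure D1:**
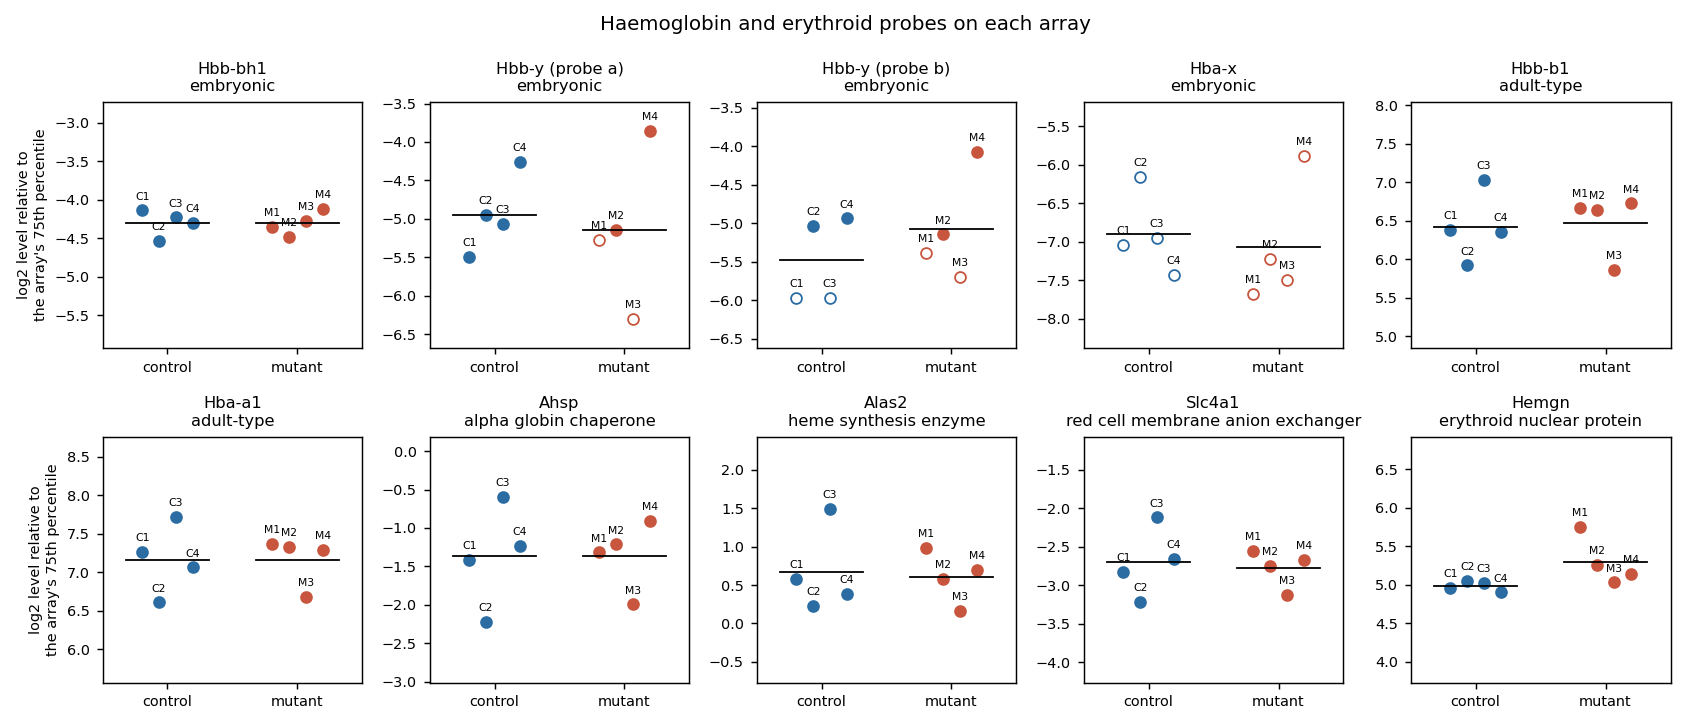
Log2 level relative to the array's 75th percentile (y axis) of each of the 10 probes on control (blue) and mutant (red) arrays; filled points are well above background, open points are not, lines are group means, and every panel spans the same number of log2 units. Hbb-b1, Hba-a1, Ahsp, Alas2 and Slc4a1 were highest on control array 3 and lowest on control array 2 and mutant array 3, and the 2 groups overlap in every panel. For Hbb-y, probe a is the one near the 3' end of the transcript and probe b the other.

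The adult-type alpha chain was read by 1 probe for Hba-a1, at chr11:32183955-32184014 on the plus strand of mm9. Its sequence is given beside that of the embryonic alpha chain Hba-x (chr11:32177668-32177727, plus strand, mm9), since the adult probe was well above background on all 8 arrays and the embryonic probe on none. No part of either is in capitals because none was singled out.
Hba-a1 probe: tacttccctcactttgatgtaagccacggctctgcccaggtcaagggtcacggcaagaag
Hba-x probe: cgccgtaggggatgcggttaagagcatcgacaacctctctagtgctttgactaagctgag

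Hba-a1 read 7.26, 6.61, 7.72 and 7.07 on control arrays 1 to 4 and 7.37, 7.33, 6.68 and 7.29 on mutant arrays 1 to 4. Control array 3 was highest, control array 2 and mutant array 3 were lowest, and the groups overlapped. Controls averaged 7.16 ± 0.46 (SD, n = 4) and mutants 7.17 ± 0.32 (SD, n = 4), a log2 difference of 0.0025 with a standard error of 0.25 (limma, adjusted p = 0.999). The 95% interval, -0.56 to 0.57, covers folds from 0.677 to 1.48, so a change within those bounds is not excluded with 4 arrays a group. The interval is not a limit of detection, since calls were adjusted over all tested probes. Across the 8 arrays the level spanned 1.11 log2 units, a 2.16-fold range. Its SD within groups, 0.398, was larger than that of 82.1% of tested probes. Hba-a2, the near-identical neighbouring alpha gene, had its own probe, which ran from 7.86 to 8.75 with a difference of 0.16 ± 0.23 (SE) (limma, adjusted p = 0.863). The probes of these near-identical genes may bind transcripts of both.

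The adult-type beta chain was read by a probe named Hbb-b1 in the array annotation, at chr7:110961105-110961164 on the minus strand of mm9. The RefSeq gene table assigns its transcript to Hbb-bt, 1 of the adult beta genes of strains with the single beta haplotype, where other strains carry Hbb-b1 and Hbb-b2. It read 6.38, 5.92, 7.03 and 6.36 on control arrays 1 to 4 and 6.66, 6.65, 5.86 and 6.72 on mutant arrays 1 to 4. Control array 3 was on top and the same 2 arrays as for Hba-a1 were at the bottom, here with mutant array 3 below control array 2. Controls averaged 6.42 ± 0.46 (SD, n = 4) and mutants 6.47 ± 0.41 (SD, n = 4), which differed by 0.049 with a standard error of 0.27 (95% interval -0.57 to 0.66, limma, adjusted p = 0.968). The probe named Hbb-b2 ran from 3.75 to 5.02 with a difference of 0.03, and the probe named Beta-s, a synonym of Hbb-bs in the RefSeq table, ran from 2.54 to 3.97 with a difference of 0.07. Both were highest on control array 3 and lowest on control array 2 and mutant array 3. Adult beta genes are near-identical in sequence, so how the signal divides among these probes is uncertain.

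The embryonic beta chain Hbb-bh1, at chr7:110990209-110990268 on the minus strand of mm9, was well above background on all 8 arrays. It read -4.14, -4.53, -4.23 and -4.29 on control arrays 1 to 4 and -4.35, -4.48, -4.27 and -4.12 on mutant arrays 1 to 4. The arrays lay close together: the range was 0.41 log2 units, 1.33-fold, beside 2.14-fold to 3.08-fold for the 5 genes that varied together. The probe lay below the median level of all probes (-3.89), so how its range compares with those of these brighter probes is uncertain. The means were -4.30 ± 0.17 (SD, n = 4) and -4.31 ± 0.15 (SD, n = 4), a difference of -0.0079 with a standard error of 0.12 (95% interval -0.28 to 0.27, limma, adjusted p = 0.988). Its sign turned under 3 other scalings.

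Hbb-y, the other embryonic beta chain, had 2 probes near the background. The probe at chr7:111000268-111000327 (minus strand, mm9) read -5.49, -4.94, -5.07 and -4.26 in controls 1 to 4 and -5.27, -5.15, -6.30 and -3.86 in mutants 1 to 4. It was well above background on 4 control and 2 mutant arrays (mutants 2 and 4). The probe at chr7:111000448-111000507 (minus strand, mm9) read -5.97, -5.03, -5.97 and -4.94 in controls and -5.38, -5.14, -5.70 and -4.07 in mutants, and was well above background on 2 control (2 and 4) and 2 mutant arrays (2 and 4). The 2 probes disagreed in direction, -0.20 with a standard error of 0.48 (95% interval -1.29 to 0.89, limma, adjusted p = 0.917) and 0.40 with a standard error of 0.39 (95% interval -0.48 to 1.29, limma, adjusted p = 0.828). The intervals are wide, and the 2 groups overlapped on each probe. The sequence of the second probe is given as that of the embryonic beta chain's read-out away from the transcript's 3' end.
Hbb-y probe: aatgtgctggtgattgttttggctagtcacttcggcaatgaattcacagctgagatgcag

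Hba-x, the embryonic alpha chain, read -7.04, -6.15, -6.95 and -7.43 in controls 1 to 4 and -7.67, -7.22, -7.50 and -5.89 in mutants 1 to 4. None of these was well above background, so no fold is given. The scanner software replaces very low processed intensities by surrogate values. The Hbb-bh1 probe and both Hbb-y probes were highest on mutant array 4, which was highest in 10 of 12 combinations of these probes with 4 scalings, the exceptions being Hbb-bh1 with normexp and with the deposited values. The mean of the tested embryonic genes (Hbb-bh1 and the brighter Hbb-y probe) minus that of the 2 adult-type genes gives a score per array that can be compared across arrays but not read as a ratio of RNAs. The score averaged -11.41 ± 0.51 (SD, n = 4) over the controls and -11.54 ± 0.39 (SD, n = 4) over the mutants, a difference of -0.13 that is smaller than either SD. Its sign turned under the 3 other scalings, to 0.0325 with normexp, 0.0677 with quantile normalisation and 0.1623 with the deposited values.

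Ahsp, a chaperone that binds and stabilises free alpha globin, read -1.42, -2.22, -0.60 and -1.23 on control arrays 1 to 4 and -1.32, -1.21, -1.99 and -0.91 on mutant arrays 1 to 4. Control array 3 was again highest, and control array 2 and mutant array 3 again lowest. The means were -1.37 ± 0.67 (SD, n = 4) and -1.36 ± 0.46 (SD, n = 4), with a difference of 0.0094 and a standard error of 0.35 (95% interval -0.78 to 0.80, limma, adjusted p = 0.995). Its range of 1.62 log2 units, 3.08-fold, was the widest of the 5 genes, and its SD within groups was larger than that of 91.6% of tested probes. The files give no genome position for this probe.
Ahsp probe: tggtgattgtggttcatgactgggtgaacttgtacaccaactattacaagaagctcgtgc

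Alas2, the X-linked erythroid enzyme that starts heme synthesis, was read at chrX:147004993-147005052 on the plus strand of mm9. Levels were 0.58, 0.23, 1.49 and 0.39 in controls 1 to 4 and 0.98, 0.58, 0.17 and 0.70 in mutants 1 to 4. Control array 3 stood above the other 7, and mutant array 3 was lowest. The means were 0.67 ± 0.56 (SD, n = 4) and 0.61 ± 0.34 (SD, n = 4), a difference of -0.067 with a standard error of 0.29 (95% interval -0.72 to 0.59, limma, adjusted p = 0.957).

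Slc4a1, the anion exchanger of the red cell membrane (band 3), was read at chr11:102210256-102210315 on the minus strand of mm9. It read -2.82, -3.22, -2.12 and -2.66 in controls 1 to 4 and -2.55, -2.76, -3.13 and -2.68 in mutants 1 to 4. The arrays at both ends were those of the globins, and the groups overlapped. The difference was -0.072 with a standard error of 0.23 (95% interval -0.60 to 0.45, limma, adjusted p = 0.943), between means of -2.71 ± 0.46 (SD, n = 4) and -2.78 ± 0.25 (SD, n = 4).

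**Figure D2:**
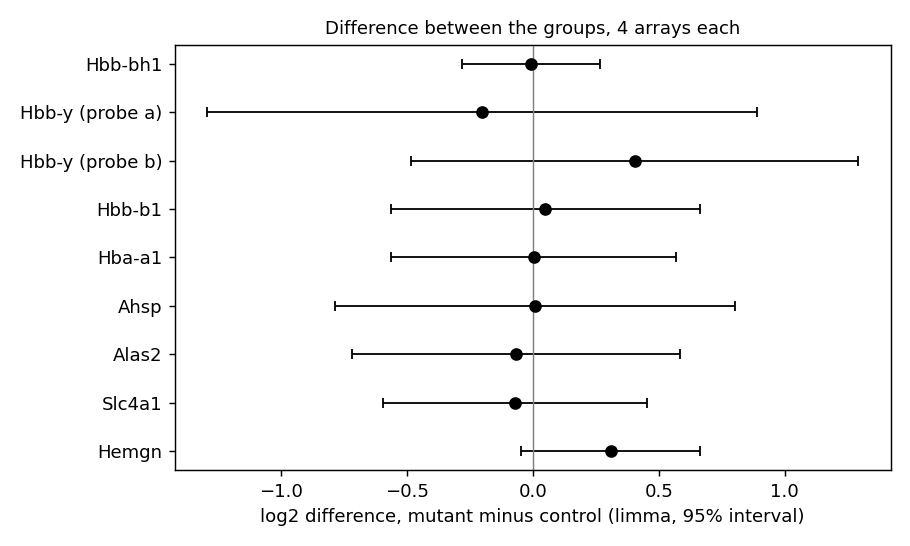
Log2 difference, mutant minus control, for the 9 tested probes (x axis; points are limma estimates and bars 95% intervals, 4 arrays a group). Every interval holds 0, and the Hbb-y intervals are the widest.

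Hba-a1, Hbb-b1, Ahsp, Alas2 and Slc4a1 varied together across the 8 arrays. Among the 28 pairs that 8 members form (Hba-x left out, and the brighter Hbb-y probe used), the 10 pairs of these 5 genes had Pearson r from 0.812 to 0.974, each with an adjusted p from 0.00677 to 0.0381 (exact two-sided permutation test over 8 arrays, Benjamini-Hochberg over 28 pairs). Spearman's rho was 0.714 to 0.952, and 3 of the 10 pairs passed by that measure (exact permutation, adjusted p 0.0319 to 0.161). The grouping of the 5 was made after these values were seen. The 18 pairs with Hbb-bh1, Hbb-y or Hemgn had r from -0.264 to 0.517 (exact permutation, adjusted p 0.483 to 0.831).

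Deviations from the group means gave r from 0.816 to 0.975 for the same 10 pairs. Leaving out the 2 arrays farthest from the median of a pair's first gene kept r at 0.717 to 0.954. For every pair but Alas2 with Slc4a1 these were control array 2 and mutant array 3, so control array 3, the highest, stayed in. For Alas2 with Slc4a1 they were control array 3 and mutant array 3. The adjusted p depended on single arrays: without control array 3 none of the 10 pairs passed (r 0.710 to 0.960, exact permutation adjusted p 0.0528 to 0.193), without mutant array 3 there were 3 (r 0.762 to 0.966), and without control array 2 there were 4 (r 0.804 to 0.968). Each slide row held 4 arrays, too few for r within a row. Within rows the difference took opposite signs: in row 1 (controls 1 and 2, mutants 1 and 2) the 5 genes were 0.37 to 0.55 higher in mutants, and in row 2 (replicates 3 and 4) they were lower by 0.40 to 0.54 on the log2 scale. Control array 3 was highest and control array 2 with mutant array 3 lowest in 20 of 20 gene and scaling combinations.

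**Figure D3:**
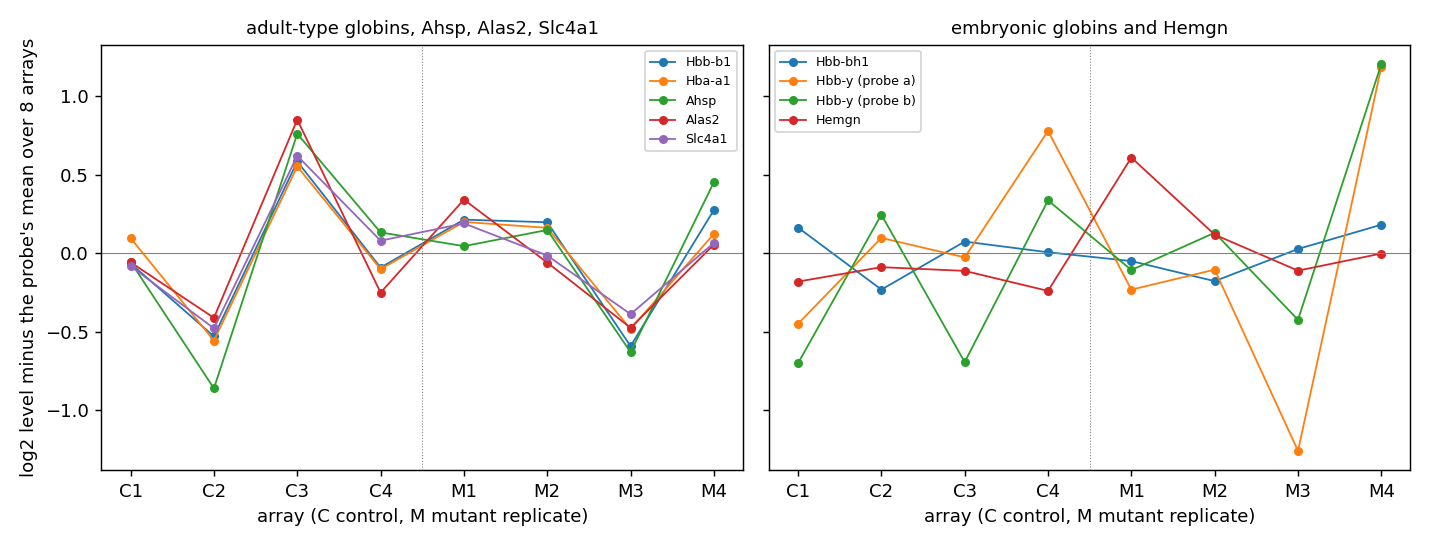
Log2 level of each probe minus its mean over 8 arrays (y axis) by array (x axis; C control, M mutant). In the left panel 5 genes follow 1 course with a peak at control array 3; in the right panel Hbb-bh1, both Hbb-y probes and Hemgn do not follow it.

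**Figure D4:**
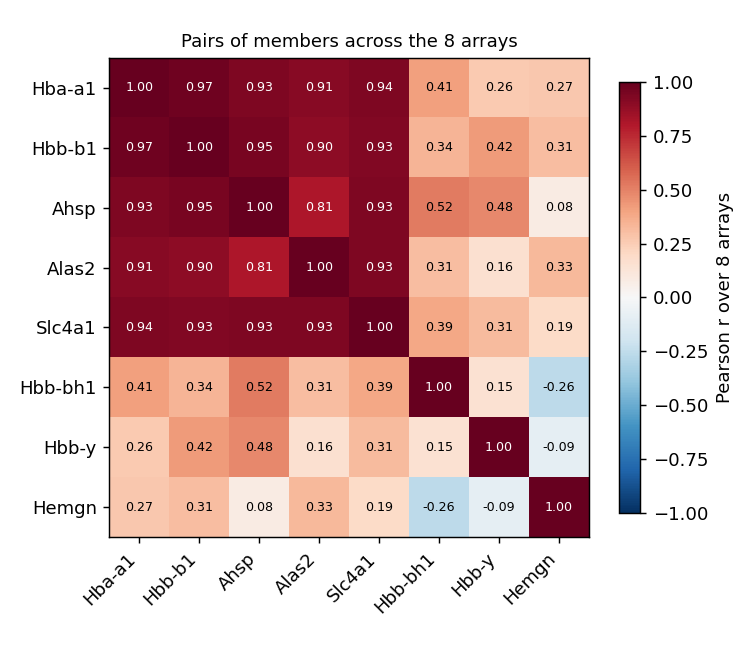
Pearson r over the 8 arrays for each pair of 8 members (colour scale from -1 to 1). The 10 pairs among Hba-a1, Hbb-b1, Ahsp, Alas2 and Slc4a1 lie at 0.812 to 0.974, and pairs with the other 3 genes lie below 0.517.

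The liver parenchyma list had 6 of 6 genes on the array, with a summed level of 7.33 to 7.82 in controls and 7.23 to 7.56 in mutants. That sum follows its brightest probes, Afp (6.21 to 7.16) and Serpina1a (5.21 to 6.27), and not Alb or Ahsg. Within the list, Alb (albumin) read -2.63, -5.35, -2.84 and -4.37 in controls 1 to 4 and -2.59, -3.90, -7.18 and -5.01 in mutants 1 to 4. Ahsg (fetuin-A, a liver plasma protein) ran from -6.30 on mutant array 3 to -1.31 on mutant array 1. Both were lowest on mutant array 3 and next lowest on control array 2, the same 2 arrays at the bottom as for the 5 genes, of which Hbb-b1 and Alas2 had them in that order and Hba-a1, Ahsp and Slc4a1 in the other. The highest array of Alb and Ahsg was mutant array 1. Alb was well above background on 7 of 8 arrays and Ahsg on 6. On mutant array 3 both read below the dimmest probe well above background there (-5.38), so their levels on that array are uncertain. Afp, Ttr, Fgb and Serpina1a were well above background on all 8 arrays and did not have the order of Alb and Ahsg. Across the arrays, r with the mean of the 5 genes was 0.73 for Alb and 0.77 for Ahsg. It was 0.32 for Afp, -0.56 for Ttr, -0.29 for Fgb and 0.14 for Serpina1a. Ttr (3.32) and Fgb (1.28) were lowest on control array 3, where the 5 genes were highest. Afp was 0.52 lower in mutants with groups that did not overlap, as in 4.38% of all tested probes (limma, adjusted p = 0.805). All 6 smooth muscle genes were lowest on control array 3, among them Acta2 (5.93), Myh11 (2.78) and Actg2 (6.44), and the 6 of 6 genes of that list summed to 7.91 to 8.51 in controls and 8.39 to 8.84 in mutants. The part of these tissues in the result was not tested.

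Promoter sequences are shown for 4 genes because Hba-a1, Hbb-b1 and Alas2 varied together and the embryonic Hbb-y did not vary with them. RefSeq (GRCm38.p6) held an entry for 5 of the 9 members by symbol, and Hbb-bt was added through the transcript of the Hbb-b1 probe. The motifs searched on both strands of the 250 bases before each start were the GATA site in the form AGATAA and also in the form TGATAA, the Klf1-type core CCACCC, the CCAAT box, and the TATA box in the form TATAAA, in the form CATAAA and in the form TATAAG. In Alas2 a match to TATAAA on the minus strand overlaps a match to TATAAG on the plus strand. Capitals mark matches, and a match on the minus strand appears as its reverse complement.
Hba-a1 promoter, chr11:32283422-32283671, plus strand: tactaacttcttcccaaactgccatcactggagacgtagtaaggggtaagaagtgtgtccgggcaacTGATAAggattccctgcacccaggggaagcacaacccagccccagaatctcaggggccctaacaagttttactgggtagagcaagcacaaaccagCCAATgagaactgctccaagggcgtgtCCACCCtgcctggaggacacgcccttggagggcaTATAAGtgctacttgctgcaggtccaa
Hbb-bt promoter, chr7:103813924-103814173, minus strand: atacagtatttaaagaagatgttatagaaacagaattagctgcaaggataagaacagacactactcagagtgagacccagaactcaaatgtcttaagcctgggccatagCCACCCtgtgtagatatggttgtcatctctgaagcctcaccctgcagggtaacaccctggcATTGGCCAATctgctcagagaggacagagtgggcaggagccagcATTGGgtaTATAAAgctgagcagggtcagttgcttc
Hbb-y promoter, chr7:103853208-103853457, minus strand: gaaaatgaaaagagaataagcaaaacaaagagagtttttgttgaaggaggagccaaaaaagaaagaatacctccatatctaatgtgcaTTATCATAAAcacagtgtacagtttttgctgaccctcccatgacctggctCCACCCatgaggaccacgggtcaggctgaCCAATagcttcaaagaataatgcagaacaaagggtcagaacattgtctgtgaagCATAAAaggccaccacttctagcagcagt
Alas2 promoter, chrX:150547167-150547416, plus strand: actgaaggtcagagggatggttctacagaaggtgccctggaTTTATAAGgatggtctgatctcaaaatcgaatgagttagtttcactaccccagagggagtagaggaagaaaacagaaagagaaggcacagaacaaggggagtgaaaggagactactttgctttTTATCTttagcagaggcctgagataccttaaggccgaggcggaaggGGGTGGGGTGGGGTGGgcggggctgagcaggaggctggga

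All 4 windows shown held CCACCC, which 28.1% of 32851 promoters of this length hold. It lay 61 bases before the start in Hba-a1, 141 in Hbb-bt and 112 in Hbb-y, and 3 times in an overlapping run in Alas2. A TATA form lay 27 to 29 bases before the start in Hba-a1 (TATAAG, in 6.65% of promoters), Hbb-bt (TATAAA, 12.4%) and Hbb-y (CATAAA, 10.8%). CCAAT, in 33.8% of promoters, lay in the 3 globin windows shown. Among the windows shown, TGATAA (7.94% of promoters) lay in Hba-a1 and Hbb-y and AGATAA (9.99%) in Alas2. The windows of Hba-x and Hemgn were searched too and are not shown. Hba-x held CCACCC (96 bases before the start), TGATAA (108) and TATAAA (28), but not CCAAT. Hemgn held TGATAA (13 bases before the start) and TATAAA (80), but neither CCACCC nor CCAAT. A match is a description of letters, not of binding.

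Hemgn, a nuclear protein of blood cell progenitors, did not vary with the other members. Its probe at chr4:46407248-46407307 (minus strand, mm9) read 4.96, 5.05, 5.03 and 4.90 in controls 1 to 4 and 5.75, 5.26, 5.03 and 5.14 in mutants 1 to 4. Mutant arrays 1, 2 and 4 were above every control, mutant array 1 was highest, and mutant array 3 lay among the controls. The difference was 0.31 with a standard error of 0.16 (95% interval -0.05 to 0.66, limma, adjusted p = 0.828), between 4.98 ± 0.07 (SD, n = 4) and 5.29 ± 0.32 (SD, n = 4), and was 0.16 without mutant array 1.

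The Hemgn probe holds a run of TG repeated 18 times, 36 of its 60 bases. The array has 36 probes with TG repeated at least 12 times, and 97.2% of them were well above background on all 8 arrays, against 56.0% of all probes. Their median level was 5.52, against -3.89 for all probes, and their median difference between the groups was 0.30. Over the 8 arrays the Hemgn probe followed the 34 others that were well above background on every array, with r above 0 in 34 of 34 and a median of 0.985, given as a description since these probes share a sequence. The median of those 34 read 5.34, 5.42, 5.23 and 5.29 in controls and 6.07, 5.64, 5.45 and 5.54 in mutants. The 11 probes with CA repeated at least 12 times had a median difference of -0.14. How far the Hemgn signal reports Hemgn RNA was not tested.

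**Figure D5:**
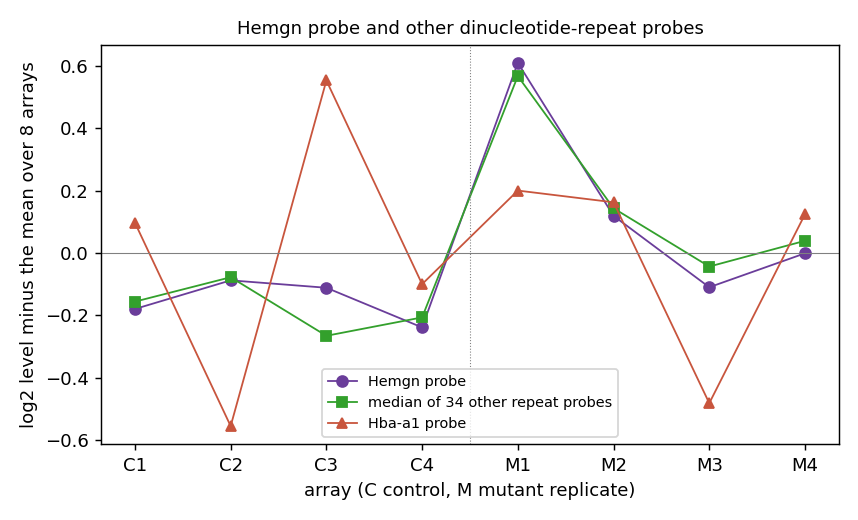
Log2 level minus the mean over 8 arrays (y axis) by array (x axis) for the Hemgn probe, the median of 34 other dinucleotide-repeat probes and the Hba-a1 probe. The Hemgn line and the repeat-probe line nearly coincide, with both highest on mutant array 1, while Hba-a1 peaks on control array 3.

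In the wider erythroid programme, 70 genes in 7 lists (globins, heme synthesis, transcription factors, membrane and skeleton, iron and erythropoietin, enzymes and maturation, haemoglobin clearance) were looked at, 68 were on the array and 56 were tested. None was called between mutants and controls (limma, beside 0.0423% of all tested probes), 41 were higher and 15 lower in mutants, 3 had an unadjusted p under 0.05 (5.05% of all tested probes did) and 1 had groups that did not overlap (4.38% of all tested probes). Both counts are near or below those shares. Their median difference was 0.057, beside 0.0240 over all tested probes. The gene without overlap was Cpox, a heme synthesis enzyme, at 0.27 with a standard error of 0.10 (limma, adjusted p = 0.828). The other 2 were the transcription factors Gfi1b (0.44, SE 0.15) and Klf1 (0.57, SE 0.24), both at a limma adjusted p of 0.828, and Klf1 was well above background on only 4 of 8 arrays.

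The lists differed in how many genes could be read. All 9 heme synthesis genes and all 9 transcription factors were tested, with 6 and 8 higher in mutants, but of 17 membrane genes only 8 were tested. Among those not tested, Rhag, Icam4 and Cldn13, a membrane channel, an adhesion molecule and a claudin of red cells, were not well above background on any array, and Ank1, Epb42 and Kel were so on 1. Gata1, the central erythroid factor, was well above background on 6 arrays. Over the 56 tested list genes, r with the mean of the 5 genes across the 8 arrays ran from -0.53 (Tmod1) to 0.98 (Hbb-b2), with a median of 0.33, 46 above 0 and 10 below. Sptb, a spectrin of the red cell skeleton, was at -0.50 and Gata1 at -0.20. Outside the globins, Trim10 (-6.54 to -5.00, well above background on 5 arrays), Tal1 (-1.89 to -1.55), Fech, the last enzyme of heme synthesis (3.36 to 3.81), and Bpgm, which makes the red cell's 2,3-bisphosphoglycerate (2.17 to 2.77), were at the upper end, with r of 0.80, 0.81, 0.80 and 0.77. They were named after these values were seen, and all are descriptions with no test. All 7 epithelial markers of the small intestine also had r above 0, from 0.01 (Epcam) to 0.56 (Cdh17). All 6 smooth muscle genes had r below 0, from -0.52 (Myh11) to -0.33 (Actg2). No share over all probes is given, so the 46 above 0 cannot be read as particular to the erythroid lists.

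Lists for other blood cells and vessels are given beside these. The platelet list (6 genes, 5 tested) summed to 1.61 to 1.81 in controls and 1.59 to 2.23 in mutants. In the white cell list (6 of 6 tested, 5 higher), S100a9 and S100a8, granulocyte calcium-binding proteins, were 0.60 higher in mutants (limma adjusted p 0.532 and 0.767). S100a9 had groups that did not overlap, as did 4.38% of all tested probes. The differences of the rest of that list were 0.19 for Cd52, 0.13 for Elane, 0.07 for Mpo and -0.40 for Ptprc. The macrophage list (6 of 6 tested) had 3 higher and 3 lower. All 6 endothelial genes were higher, by 0.05 to 0.23, none called. Each of the 6 was highest on mutant array 1, the array that correlated least with the others.

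The marker list with the largest differences between the groups, by their median, was that of pancreas acinar cells, whose enzymes digest food. All 6 of its tested genes (7 on the array) were higher in mutants, and none was called (limma). All 6 had an unadjusted p under 0.05 (5.05% of all tested probes did). Among them, 4 had groups that did not overlap (4.38% of all tested probes did). Amy2a5, an amylase, was 6.09 higher with a standard error of 1.01 (limma, adjusted p = 0.196), and was well above background on 3 control and 4 mutant arrays. Cela2a, an elastase, was well above background on no control and all 4 mutant arrays, which puts it at least 3.98-fold higher there when set against the dimmest probe well above background on each control array (adjusted p = 0.153 by limma). Since Cela2a passed the filter only through mutant arrays, its p and its lack of overlap were favoured by the filter. The other 4, Pnliprp1, Ctrb1, Cpa1 and Cel, were 1.02 to 2.30 higher. The median over the 6 was 1.80, or 1.65 with Cela2a at its bound. Their r with the mean of the 5 genes lay between -0.02 and 0.30, and their part in the members' levels was not tested.

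Over the 8 arrays, the 10 genes outside the members and lists whose level was most like the mean of the standardised members were Txn1 (r = 0.962, level 5.84 to 6.12), Rheb (0.955), Ralgapa2 (0.954), March8 (0.926, level 3.03 to 3.68), Mtfmt (0.923), Zdhhc22 (0.922, level -0.00452 to 1.27), Pik3c3 (0.910), Alox12b (0.901), Lamc3 (0.901) and Fahd2a (0.898). They were chosen as the highest of 14640 names, so no test applies. Most moved by less than the globins did, with a range of 0.15 log2 units for Rheb and 0.28 for Txn1, and of 1.28 for Zdhhc22.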

How the data were processed

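Per the labels' protocols, 100 ng of total RNA per array was labelled with Cy3 in a single-colour protocol. The deposited scanner files hold linear intensity values, per the file headers read with Agilent Feature Extraction 10.10.1.1 on a design annotated on mm9; the processed intensity is background-corrected and detrended within an array. The authors also deposited a value table on a linear intensity scale whose processing the labels do not state. It followed the median pixel intensity of each array (rank correlation 0.999967 to 0.999984) and served as an alternative. All 8 arrays lay on 1 slide read in 1 scan. For mutant replicates 2, 3 and 4 a free-text label names a different Rfx gene than the title does; groups follow the titles and source names.

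Control spots and spots marked as outliers (117 to 157 an array) were left out. Each array's 75th percentile of processed intensity was subtracted on the log2 scale, and spots of a probe were averaged. Every probe well above background on at least 4 of 8 arrays was fitted with limma 3.58.1 (lmFit, eBayes, R 4.3.3), with Benjamini-Hochberg adjustment over all tested probes and a threshold of 0.05. The script was tested on simulated data. Correlations used exact permutation tests over all orders of the arrays, computed with NumPy 2.4.6, with ranks from SciPy 1.17.1. The number of arrays limits the precision. Named genes were all members, the pathway and marker lists, Rfx6, and the 10 names most correlated with the members, without clone, predicted or interval names. Members and lists were chosen with earlier results of these data known. Alternatives were normexp background correction with an offset of 50, quantile normalisation, the deposited values, other filters on dim probes, slide row or replicate number as a block, array weights, 1 probe a gene, and each array left out.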

Additional observations from a re-analysis of the deposited data

Results flagged for a closer look

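A level was set apart here when, within a group of 4 arrays, its distance to the nearest other array was large against the group's range (Dixon's test at 95%). This held in 20 of 250 groups tested, and chance alone gives about 12.5. Among the members it held for Hbb-b1 on mutant array 3 (5.86, the other mutants 6.65 to 6.72) and for Hba-a1 on the same array (6.68, the others 7.29 to 7.37).

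Among the erythroid lists, mutant array 1 was high for Slc25a38 (2.19) and Blvrb (2.82), mutant array 4 was high for Gata1 (-4.76), and mutant array 2 was low for Car2 (-0.92). In controls, array 3 was high for Tal1 (-1.57), array 1 low for Bcl11a (0.22), array 2 low for Blvrb (2.24) and array 4 high for Ube2o (1.85).

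Among markers of other cells, mutant array 1 was high for C1qa (1.80), Gp1bb (-2.21) and Tagln (6.51) and low for Ptprc (-3.06). Mutant array 4 was high for Cd14 (-1.002) and mutant array 2 low for Ctrb1 (0.25). Control array 3 was high for Cpa1 (-2.36) and low for the smooth muscle genes Acta2 (5.93), Myh11 (2.78) and Actg2 (6.44).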

How the results depend on the processing

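No member was called under any alternative. Differences near 0 changed sign: Hbb-bh1 was 0.0573 with normexp, 0.0165 with quantile normalisation and 0.0713 with the deposited values; the Hbb-y probe nearer the 3' end was 0.0433 with normexp and 0.0168 with the deposited values; Hbb-b1 was -0.0757 with quantile normalisation and -0.0737 with the deposited values; and Hba-a1 was -0.0074, -0.1277 and -0.1628 with normexp, quantile normalisation and the deposited values. With each array left out in turn, the ranges were -0.0861 to 0.0498 for Hbb-bh1, -0.6321 to 0.1833 and 0.2383 to 0.6126 for the Hbb-y probes, -0.1189 to 0.2543 for Hbb-b1, -0.1822 to 0.1874 for Hba-a1, -0.2757 to 0.2649 for Ahsp, -0.215 to 0.2058 for Alas2, -0.2428 to 0.1234 for Slc4a1, 0.1572 to 0.3973 for Hemgn, and -0.3343 to 0.0101 for embryonic minus adult-type. That score's difference of -0.1309 was 0.0325, 0.0677 and 0.1623 with normexp, quantile normalisation and the deposited values.

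The 15 probes called over the whole array became 24 with normexp and 44 with array weights, and 8 (without control array 2) to 19 (without mutant array 4) with 1 array left out. Same-numbered controls and mutants did not deviate together more than the other pairs (correlations from -0.087 to 0.0996, against -0.206 to 0.263). The arrays were therefore not paired by number, though 4 arrays a group are too few to exclude a pairing. With the replicate block 7 probes were called, all among the 15. The other settings gave 10 to 16. In the lists, Amy2a5 was the 1 gene called with normexp. Amy2a5 and Cela2a were the 2 called with the slide row as a block, though Cela2a passed the filter only through mutant arrays. With any array left out, 0 were called. Pairs of members under the threshold numbered 0 to 10 with 1 array left out. The cause of these shifts was not tested. The alternatives for lists and pairs were chosen after seeing the data. The embryonic probes are limited by their signal over background.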
